A study of Mus musculus with 3 samples.

Results

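The replication-dependent histone gene clusters of the mouse were described in RNA-seq of 2-cell embryos. They were taken by position as 3 intervals of the mm9 build, chr13:21780001-22150000, chr13:23600001-23880000 and chr3:96020001-96100000. These hold 730 of the 2725730 nuclear windows of 1 kb, and every window was kept whatever its signal. The single group held 3 litters of embryos at the 2-cell stage, collected at embryonic day 1.5, with the embryos of a litter pooled in 1 library. The mothers were LSD1 FL/FL, homozygous for a floxed allele of a histone demethylase gene, on a mixed background. They were ZP3::Cre negative, so they lacked the transgene that expresses Cre in growing oocytes, and the fathers were wild type CB6 males. The labels name litters 1 to 3 as separate collections and give no sex of the embryos. There was no second condition, so the data give levels, their spread over litters, and the order of levels within a litter.

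Histones H2A, H2B, H3 and H4 form the protein core around which DNA is wrapped, and the linker histone H1 binds the DNA between cores. The replication-dependent genes supply these proteins while DNA is copied. They lie in clusters, have a single exon, and give short messages that end in a stem-loop in place of a poly(A) tail. In the mouse the Hist1 cluster is on chromosome 13 and the Hist2 cluster on chromosome 3. The egg stores histone messages, and the mouse embryo takes over transcription mainly at the 2-cell stage, so a library of this stage can hold both maternal and embryonic histone RNA. Genes of a class are so alike that a short read often matches several of them.

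The sequences that make this likeness concrete are the 72-base stretches of coding sequence held at the same coding position by the most protein-coding Hist1 and Hist2 genes of each class, in the GENCODE M21 annotation of GRCm38. An alignment here is also 72 bases long, so a read with such a stretch matches every gene that holds it. The H2A stretch was held by 13 genes, the H2B stretch by 12, the H3 stretch by 10 and the H4 stretch by 11. Each is shown with the stretch of the gene of equal coding length that differs from it most, which lies on chromosome 3, and capitals mark the bases that differ within the pair.
Hist1h2ab (H2A, chromosome 13, coding bases 178 to 249): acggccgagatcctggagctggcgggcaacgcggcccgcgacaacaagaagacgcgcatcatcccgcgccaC
Hist2h2ab (H2A, chromosome 3): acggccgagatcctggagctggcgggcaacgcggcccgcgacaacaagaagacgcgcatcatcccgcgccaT
Hist1h2bb (H2B, chromosome 13, coding bases 235 to 306): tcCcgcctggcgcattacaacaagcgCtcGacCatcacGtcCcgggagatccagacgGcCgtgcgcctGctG
Hist2h2be (H2B, chromosome 3): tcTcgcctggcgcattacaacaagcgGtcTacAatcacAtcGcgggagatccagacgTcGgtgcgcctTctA
Hist1h3a (H3, chromosome 13, coding bases 154 to 225): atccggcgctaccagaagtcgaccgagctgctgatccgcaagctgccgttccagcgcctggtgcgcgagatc
Hist1h4a (H4, chromosome 13, coding bases 169 to 240): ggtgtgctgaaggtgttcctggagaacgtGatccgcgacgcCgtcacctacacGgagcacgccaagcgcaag
Hist2h4 (H4, chromosome 3): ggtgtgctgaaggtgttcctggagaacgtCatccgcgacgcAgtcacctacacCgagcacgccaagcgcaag
The H2A pair differed at 1 base, the H4 pair at 3 and the H2B pair at 10. The H3 stretch of Hist1h3a on chromosome 13 was identical in Hist2h3b on chromosome 3, so only 1 copy is printed. The H2A stretch of Hist1h2ab was also held unchanged by the Hist2 genes Hist2h2aa1 and Hist2h2aa2, among its 13 genes.

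Coverage per base was resolved into 72-base alignments, which numbered 34014013, 32431630 and 40474940 on nuclear chromosomes in litters 1 to 3. Levels are RPKM: a count of alignments divided by the length in kb and by the litter's nuclear total in units of 1000000. With 0 alignments in a 1 kb window, the limit of 3 alignments equals 0.0882, 0.0925 and 0.0741 RPKM in litters 1 to 3, and this covers counting error only. Cell type markers were not analysed here, since an mm9 gene annotation was not used. Each library pooled whole embryos, so RNA of fewer cells and less RNA per cell cannot be told apart.

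The 3 intervals held 101925, 41243 and 105308 alignments in litters 1 to 3. That was 0.2997%, 0.127% and 0.260% of the nuclear alignments (0.229 ± 0.0904%, SD, n = 3), on 0.0268% of the nuclear sequence. Litter 2 had the lowest share. Equal counts recur between blocks of the clusters, as given below, and this share includes them at every place. Of the 730 windows, 66 were at 1 RPKM or more in all 3 litters, which is 9.04%, beside 1.19% of all nuclear windows. No alignment fell in 486 windows in any litter, 66.6% of the clusters' windows, beside 79.2% of all nuclear windows. The clusters were therefore mostly empty sequence with a few covered places.

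The second chromosome 13 interval had the highest density of alignments, at 4.87, 2.16 and 4.31 RPKM in litters 1 to 3 (3.78 ± 1.43, SD, n = 3). The first chromosome 13 interval was at 3.72, 1.45 and 3.26 RPKM (2.81 ± 1.20). The chromosome 3 interval was at 3.20, 1.60 and 2.36 RPKM (2.39 ± 0.8004). The second interval was highest in every litter, and the other 2 changed order in litter 2. With each start position counted a single time per litter, the order turned, with 2.24, 1.54 and 2.47 RPKM in the second chromosome 13, first chromosome 13 and chromosome 3 intervals. With all alignments counted the means differed by less than the SD of the second interval, 1.43 RPKM.

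The sequence of 500 kb on each side was less covered than the clusters. In the first chromosome 13 interval the density was 12.9, 4.44 and 12.5 times that of its flanks in litters 1 to 3, where the flanks averaged 0.293 ± 0.0331 RPKM. In the second it was 41.6, 15.2 and 16.5 times that of flanks at 0.174 ± 0.0774 RPKM. The chromosome 3 interval stood 5.46, 2.44 and 3.38 times above flanks at 0.648 ± 0.0566 RPKM. The log2 ratios to the flanks were 3.16 ± 0.87, 4.45 ± 0.81 and 1.83 ± 0.58 for these intervals in the same order (SD, n = 3). With each start position counted a single time per litter they were 1.91, 3.46 and 1.31. Both counts still include, at every place, starts whose counts recur between blocks of the clusters, as given below. All 3 litters had a higher density inside than outside in each interval. An exact test that flips the signs of the litters' log2 ratios (two-sided permutation) returned p = 0.25 for all 3 intervals, also after Benjamini-Hochberg adjustment (0.25), and 0.25 is the smallest p that 3 litters allow.

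Covered sequence was cut into blocks, runs of bases with a coverage of at least 10 summed over the litters, with gaps of up to 50 bases bridged and a length of at least 100 bases. The clusters held 90 blocks, of which 66 reached 1 RPKM in all 3 litters. That is 73.3%, beside 30.8% of all nuclear blocks. These 66 are called covered. Of them, 52 were 300 to 800 bases long, near the size of a histone message, which is 78.8%, beside 27.5% of all covered nuclear blocks. Covered blocks took 2.55%, 3.75% and 4.33% of the length of the first chromosome 13, second chromosome 13 and chromosome 3 intervals. They held 98.0%, 97.5% and 98.9% of the first interval's alignments in litters 1 to 3, 99.6%, 98.6% and 99.7% of the second's, and 93.2%, 93.4% and 98.1% of those on chromosome 3. Almost all alignments therefore lay in short blocks. The blocks were cut from the same coverage, so a high share inside them follows in part from their definition. The same share over all nuclear sequence is not given here.

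The blocks were not independent of each other. At many places the number of alignments that start at each base was equal, base after base and in every litter, to that of another block, read in the same or the opposite direction. A read that is counted at each copy it matches gives such runs, though how multiple matches were treated is not given in the sources used here. Blocks were joined where a run held at least 12 covered start positions, a rule chosen after the data were seen. Of the 2145 pairs of covered blocks, 334 shared such a run. Of these, 333 joined 55 blocks into 4 families of 18, 14, 12 and 11 blocks. Any run between families would have merged them, so the absence of such runs follows from the rule.

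**Figure D1:**
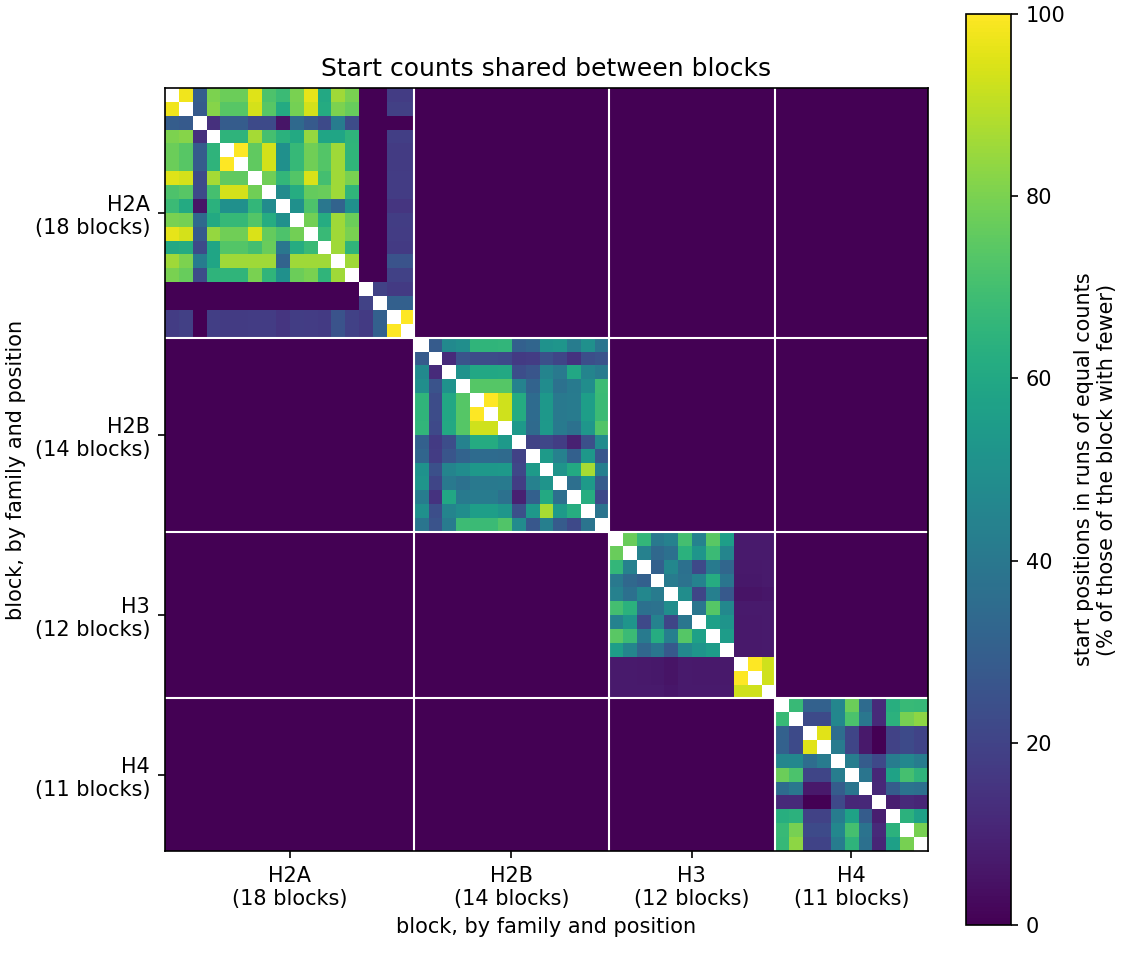
Sharing of start counts between the 55 blocks of the 4 families, ordered by family and then by position along both axes. Colour gives the start positions that lie in runs of equal counts, as a percentage of those of the block with fewer, and the diagonal is left white. Sharing is 0 outside families by definition. The 4 H2A and 3 H3 blocks on chromosome 3 stand apart from those of chromosome 13 at the lower right of their squares.

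Each family was set against a histone class by its pattern of sharing, with no use of coordinates of another build. For each start position of a block the number of other blocks with equal counts was taken, and for each 72-base word of a GENCODE M21 transcript the number of other Hist1 and Hist2 genes that hold it. The class whose transcript had the smallest mean difference between the numbers was taken. The median difference was 0.877 copies for the family of 18 blocks matched to H2A, against 2.82 for the next best class. The H2B family of 14 blocks had 0.837 copies against 2.25, the H3 family of 12 had 0.295 against 1.28, and the H4 family of 11 had 0.126 against 0.910. Over blocks, the smallest difference from a next best class was 0.226 copies in H2A, 0.826 in H2B, 0.978 in H3 and 0.260 in H4. The largest difference from a best class was 1.32, 1.15, 0.388 and 0.273 copies in the same order. A family took the class that most of its blocks matched best, and 54 of the 55 blocks matched best the class of their family. The exception, chr13:21813933-21814335 in the H2B family, differed by 0.762 copies from H2A and by 0.826 from H2B. The annotation lists 19 H2A, 17 H2B, 12 H3 and 12 H4 genes in Hist1 and Hist2, beside 6 H1 genes. With words counted anywhere in any transcript and over genes of any class, the most shared word of H3 was held by 12 genes and that of H4 by 11, the same numbers as the most blocks with equal counts at a position. For H2A these numbers were 14 genes and 16 blocks, and for H2B 13 genes and 14 blocks. The classes are thus assigned to families, and no block is given a gene name, because the annotation is of another build than the alignments.

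**Figure D2:**
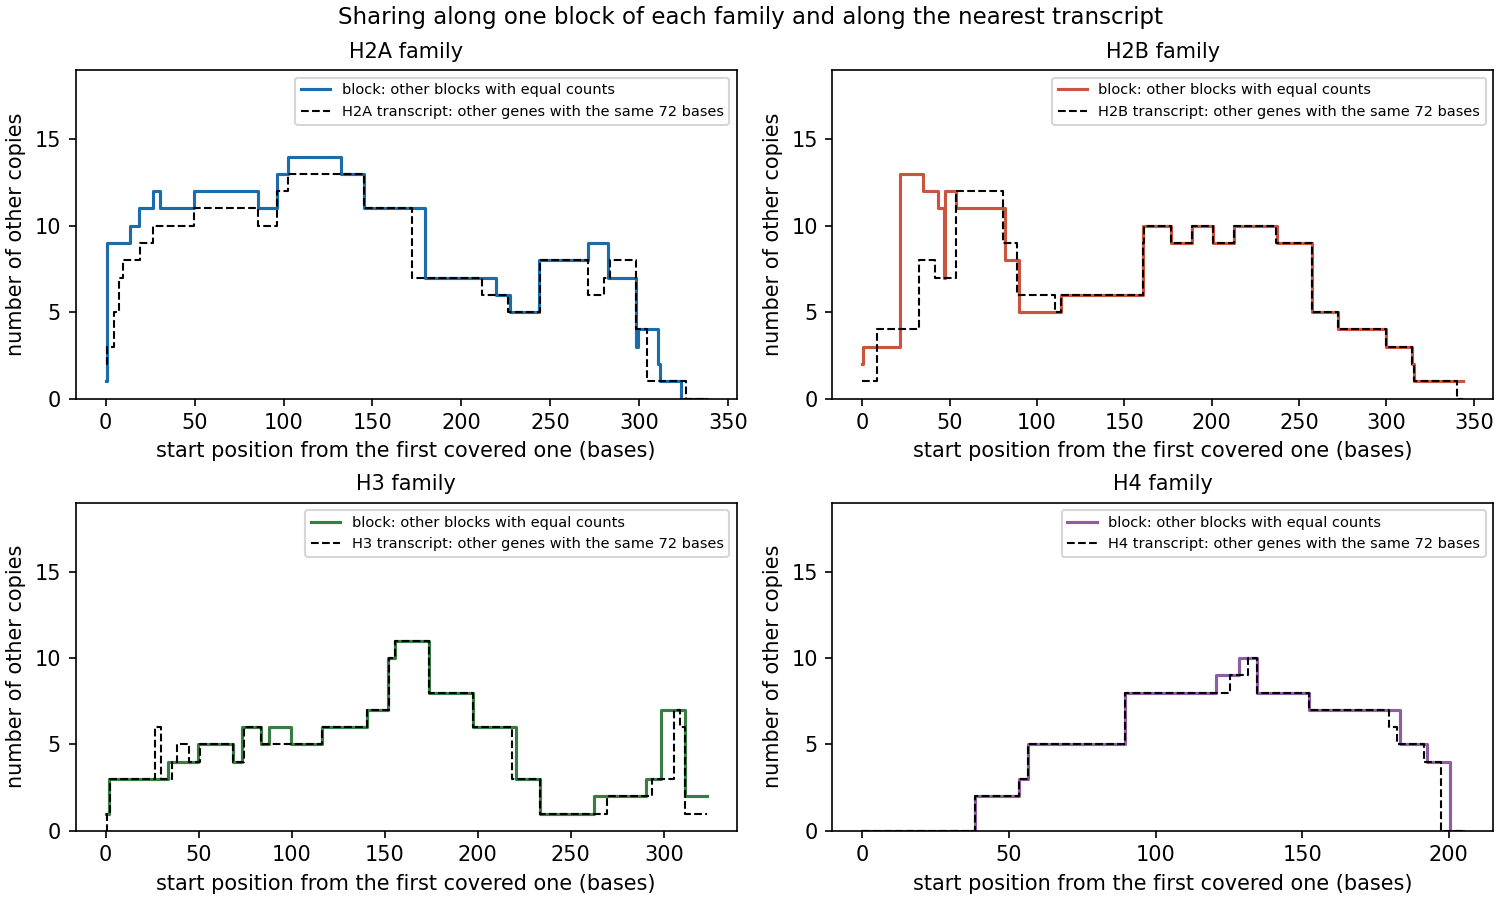
Number of other copies along a block of each family (coloured line, other blocks with equal start counts) and along the nearest transcript of its class (dashed line, other Hist1 or Hist2 genes with the same 72 bases). The horizontal axis is the start position in bases from the block's first covered one, and the block shown is the one whose difference lies nearest its family's median. The lines nearly coincide for H3 and H4, and for H2A and H2B they part mainly at the low positions.

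H2A was the largest family, with 8 blocks in the first chromosome 13 interval, 6 in the second and 4 on chromosome 3. Its blocks were 206 to 442 bases long, with a median of 367 beside a median coding length of 393 bases in the annotation. The median block level was 146, 44.9 and 97.1 RPKM in litters 1 to 3 (96.0 ± 50.6, SD, n = 3). Litter 1 was highest and litter 2 lowest in all 18 blocks. The highest H2A block, chr13:23838050-23838255, was at 212, 59.3 and 147 RPKM, and was also the shortest.

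The order of H2A blocks between the chromosomes turned with the way shared positions were counted. With every alignment counted at each place, the chromosome 3 medians were 88.9, 29.9 and 52.3 RPKM in litters 1 to 3, against 149, 45.1 and 98.7 RPKM for the 14 blocks of chromosome 13. The groups did not overlap in mean level on that count, at 34.3 to 58.8 RPKM on chromosome 3 against 86.0 to 139 RPKM on chromosome 13. With each shared position divided over the blocks that share it, the medians were 27.6, 10.6 and 15.3 RPKM on chromosome 3, against 13.97, 5.21 and 9.32 RPKM on chromosome 13, and the groups overlapped in every litter. Chromosome 3 was the lower on the first count and the higher on the second in all 3 litters. Between the chromosomes, 26 of 56 pairs of H2A blocks shared a run, by 15.5 to 25.5% of start positions, whereas all 91 pairs within chromosome 13 did so, by a median of 73.3%. The pair chr3:96043775-96044216 and chr3:96049461-96049902 had equal counts at every start position, so the files give them a single set of values, 88.9, 29.9 and 52.3 RPKM. The pair chr3:96023782-96024098 and chr3:96024397-96024759, with 55.1, 17.8 and 30.01 RPKM in the first and 91.1, 31.0 and 54.3 RPKM in the second, shared no run with chromosome 13.

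H2B blocks had the highest median level in every litter. There were 8 in the first chromosome 13 interval, 6 in the second and 0 on chromosome 3. A copy that shares no run joins no family, so this 0 does not show that chromosome 3 had no covered H2B copy. Lengths were 307 to 461 bases with a median of 373, beside a coding length of 381. The median block was at 195, 87.5 and 218 RPKM in litters 1 to 3 (167 ± 69.5, SD, n = 3). Litter 3 was highest and litter 2 lowest in all 14 blocks. In litter 1 the highest H4 and H2A blocks, at 229 and 212 RPKM, were above the highest H2B block at 204 RPKM. By mean level, the 5 highest blocks of each chromosome 13 interval were all H2B. Of these, chr13:21901674-21902046 and chr13:21925634-21926006 had identical counts and stood at 204, 91.8 and 227 RPKM (174 ± 72.2), on 2586, 1111 and 3423 alignments. In the second interval chr13:23776099-23776466 led with 204, 91.5 and 226 RPKM (174 ± 72.2). The other 3 leading blocks of the first interval averaged 167 to 173 RPKM, and the other 4 of the second 158 to 171 RPKM. The leading blocks differed by far less than the litters did. However, 73.0 to 100% of their start positions were shared with other blocks, so their levels are not separate measurements.

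H3 blocks numbered 2 in the first chromosome 13 interval, 7 in the second and 3 on chromosome 3, and were 379 to 679 bases long, with a median of 395.5 beside a coding length of 411. The median level was 62.0, 56.0 and 87.4 RPKM in litters 1 to 3 (68.5 ± 16.7, SD, n = 3). Litter 3 was highest in all 12 blocks and litter 2 lowest in 10. The exceptions were the longest blocks, chr13:23636341-23637019 and chr13:23653565-23654233, which also had the lowest H3 levels. The first had 38.2, 40.2 and 56.9 RPKM and the second had 38.9, 40.01 and 58.3 RPKM, with litters 1 and 2 close together.

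The chromosome 3 interval was led by its 3 H3 blocks. Block chr3:96072619-96072997 had 68.2, 61.7 and 87.5 RPKM in litters 1 to 3 (72.4 ± 13.4, SD, n = 3). Blocks chr3:96042484-96042910 and chr3:96050763-96051189 shared every count, at 62.0, 54.5 and 79.1 RPKM (65.2 ± 12.6). These 3 had the smallest coefficients of variation of all covered blocks, 18.5% and, for the identical pair, 19.3%. Between chromosomes 3 and 13 all 27 pairs of H3 blocks shared a run, but by only 5.25 to 7.33% of start positions. The H3 stretch held by Hist1h3a and Hist2h3b is an example of sequence that is equal on both chromosomes.

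H4 blocks numbered 5 in the first chromosome 13 interval, 6 in the second and 0 on chromosome 3. As for H2B, a covered chromosome 3 copy that shares no run would be missing from this count. The blocks were 263 to 432 bases long, with a median of 329 beside a coding length of 312. The median level was 162, 46.4 and 110 RPKM in litters 1 to 3 (106 ± 58.0, SD, n = 3). Litter 1 was highest and litter 2 lowest in all 11 blocks, the order also seen for H2A. Block chr13:23673435-23673790 had 229, 50.1 and 118 RPKM, the widest litter spread of the family at 68.2%. Only 16.9% of its start positions were shared with other blocks, the smallest share among the 55. Most of its 132 RPKM mean thus came from alignments outside the recognised runs of equal counts.

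**Figure D3:**
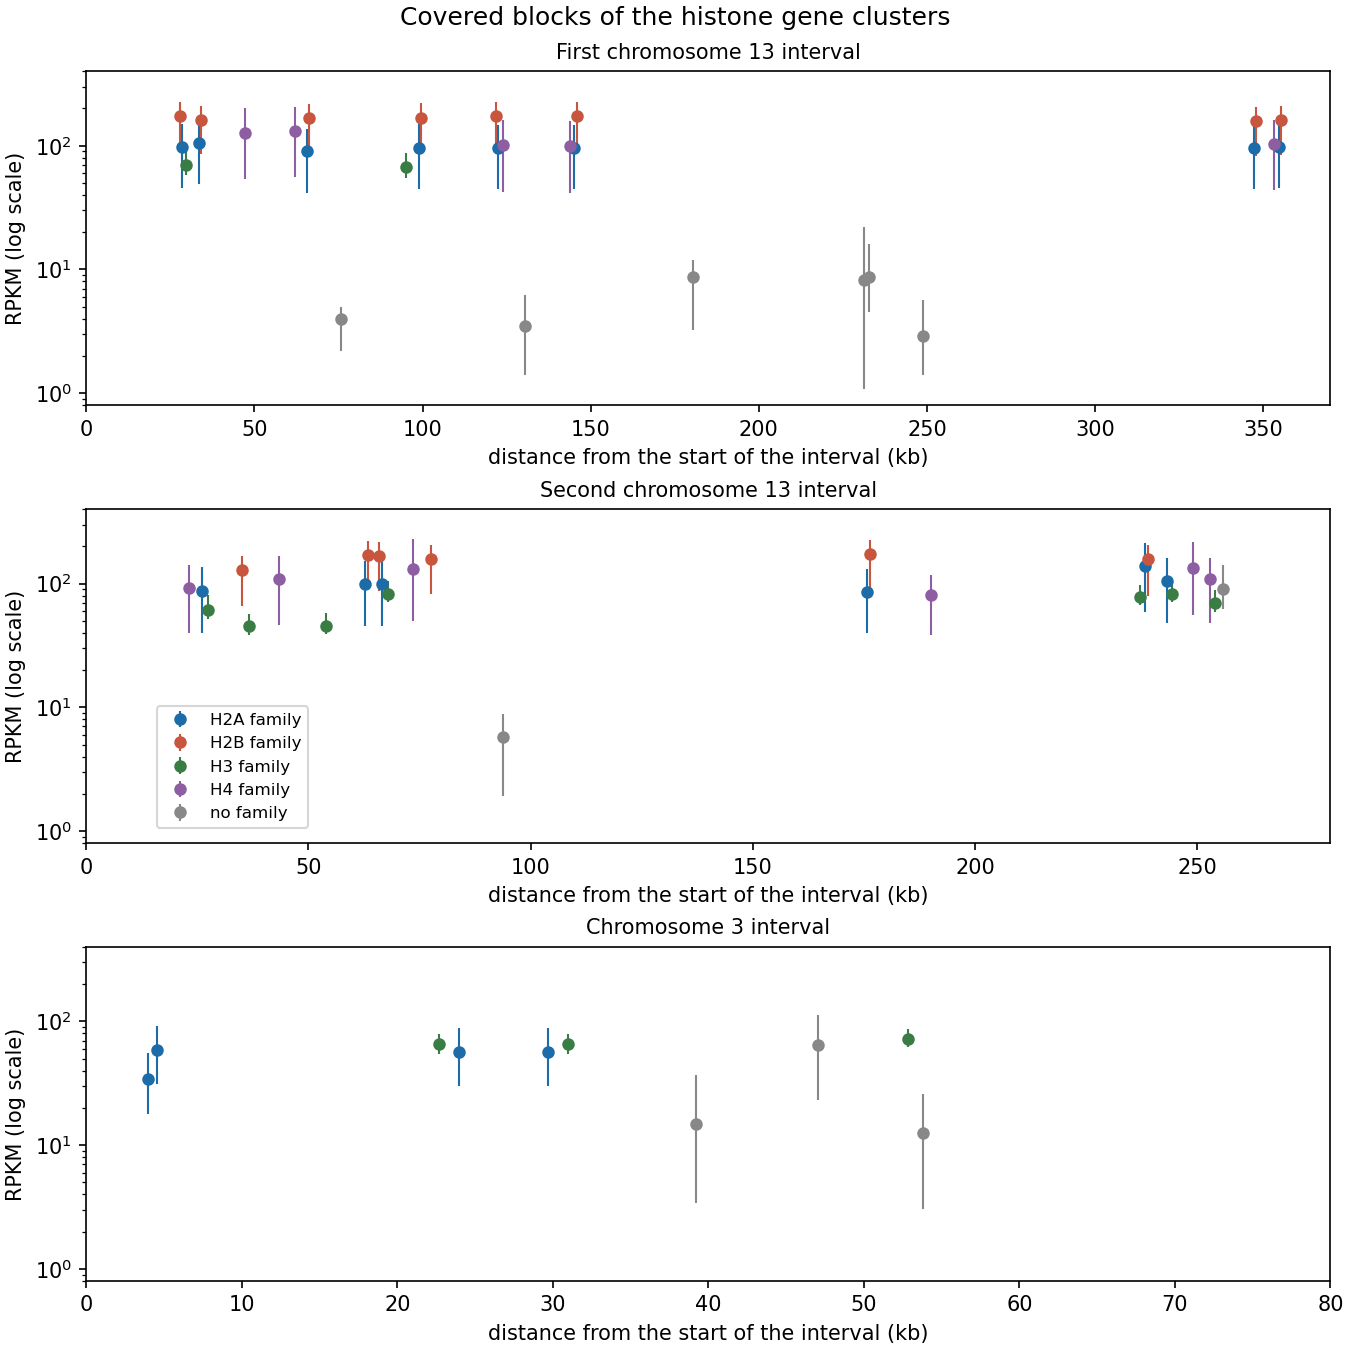
Level of each covered block (RPKM, log scale) against its distance in kb from the start of its interval, in 3 panels for the 3 intervals. Points are means of 3 litters and bars run from the lowest to the highest litter, coloured by family. Family blocks form a band from 34.3 to 174 RPKM, and 9 of the 11 grey blocks without a family lie below that band.

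Family blocks were grouped along the chromosome. The first chromosome 13 interval held 23 of them, with a stretch of 201 kb between 21926007 and 22127043 that held none. The second held 25 with a widest gap of 97.5 kb, and chromosome 3 held 7 with a widest gap of 21.4 kb. The longest runs of windows without any alignment were 16, 14 and 15 kb in these intervals. The median distance between neighbouring family blocks was 1057.5, 3003.5 and 3054.0 bases.

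Neighbouring blocks were mostly an H2A beside an H2B. Of 13 pairs of family blocks within 500 bases of each other, 12 joined the H2A and H2B families and 1 joined 2 H2A blocks. The distance between the H2A and H2B blocks was 272 to 466 bases with a median of 291.5. In 10 of the 12 pairs the best matching transcripts ran in opposite directions. The annotation lists 13 H2A and H2B pairs as close, all 13 in opposite directions. Families were built from covered blocks only, so both members of each pair were covered in every litter by definition. The H2B block was the higher in every litter in 11 of the 12 pairs. Its level over that of the H2A block was 0.890 to 1.56 in litter 1, 1.34 to 2.28 in litter 2 and 1.40 to 2.60 in litter 3. The exception was the pair with the shortest H2A block, where H2A was the higher in litter 1. In litters 2 and 3 the lowest H2B levels, 66.1 and 166 RPKM, were above the highest H2A levels, 59.3 and 147 RPKM. Any pairing gives the same order in those litters. Blocks of a family share counts, so the 12 pairs are not separate measurements.

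Because equal runs of counts recur from block to block, the blocks of a family are not replicates. The 4 families held 93.6%, 92.7% and 96.8% of the intervals' alignments in litters 1 to 3, 95397, 38244 and 101939 in number. Counting each shared start position once over the blocks that share it left 29681, 11868 and 31598, which is 31.1%, 31.0% and 31.0%. By median over blocks, 93.5% of start positions in H2A blocks were shared, 78.8% in H2B, 83.8% in H3 and 76.5% in H4. In 10 blocks every position was shared, and the files hold no separate value for any of them. In 38 of the 55 blocks more than 3 alignments in every litter lay at positions that no other covered block shared, and the remaining 7 lay between. These 38 were 9 of 18 H2A, 12 of 14 H2B, 8 of 12 H3 and 9 of 11 H4 blocks.

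Unshared alignments are those outside the recognised runs of equal counts, and they can still include reads that match other copies. Over the 3 litters together they were most numerous in the H2B block chr13:21813933-21814335, at 2126, 953 and 2849 in litters 1 to 3. The H4 block chr13:23673435-23673790 had 2227, 432 and 1294, and the H2A block chr13:21845324-21845684 had 889, 261 and 639. Each of these 3 kept the litter order of its family. The H2B block had 2580, 1120 and 3420 alignments in all, close to the 2586, 1111 and 3423 of chr13:21901674-21902046 in its family. Its unshared alignments are therefore not shown to be its own. Positions with 6 or more partner blocks held more alignments than unshared positions in all 4 families, but the number did not climb with partners throughout. In H2A a start position with no partner held 2.01, 0.641 and 1.497 alignments on average, a position with 1 to 5 partners 1.69, 0.631 and 1.21, and a position with 6 or more 6.97, 1.96 and 5.52. In H2B the same values were 4.51, 1.99 and 6.07 without a partner, 5.81, 2.55 and 7.81 with 1 to 5, and 8.46, 3.50 and 10.99 with 6 or more. In H3 they were 0.771, 0.691 and 1.38 without a partner, 1.63, 1.37 and 2.61 with 1 to 5, and 4.10, 4.03 and 7.15 with 6 or more. For H4 they were 3.13, 0.686 and 2.03 without a partner, 8.70, 2.23 and 6.37 with 1 to 5, and 7.66, 2.20 and 6.60 with 6 or more. H2A positions with 1 to 5 partners thus held fewer than unshared ones, and in H4 they held more than those with 6 or more in litters 1 and 2.

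A level per family was taken with each shared position counted once, per kb of the mean block length. It estimates the RNA of all copies together, and is an upper estimate where reads at slightly different copies were not recognised as shared. H2B was highest, at 917, 418 and 1027 RPKM in litters 1 to 3 (788 ± 324, SD, n = 3). H4 was at 810, 201 and 471 RPKM (494 ± 305), and H2A at 480, 161 and 305 RPKM (315 ± 160). H3 was at 200, 188 and 287 RPKM (225 ± 54.0). H2B led in every litter. H3 was the lowest class in litters 1 and 3, and H2A was the lowest in litter 2.

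**Figure D4:**
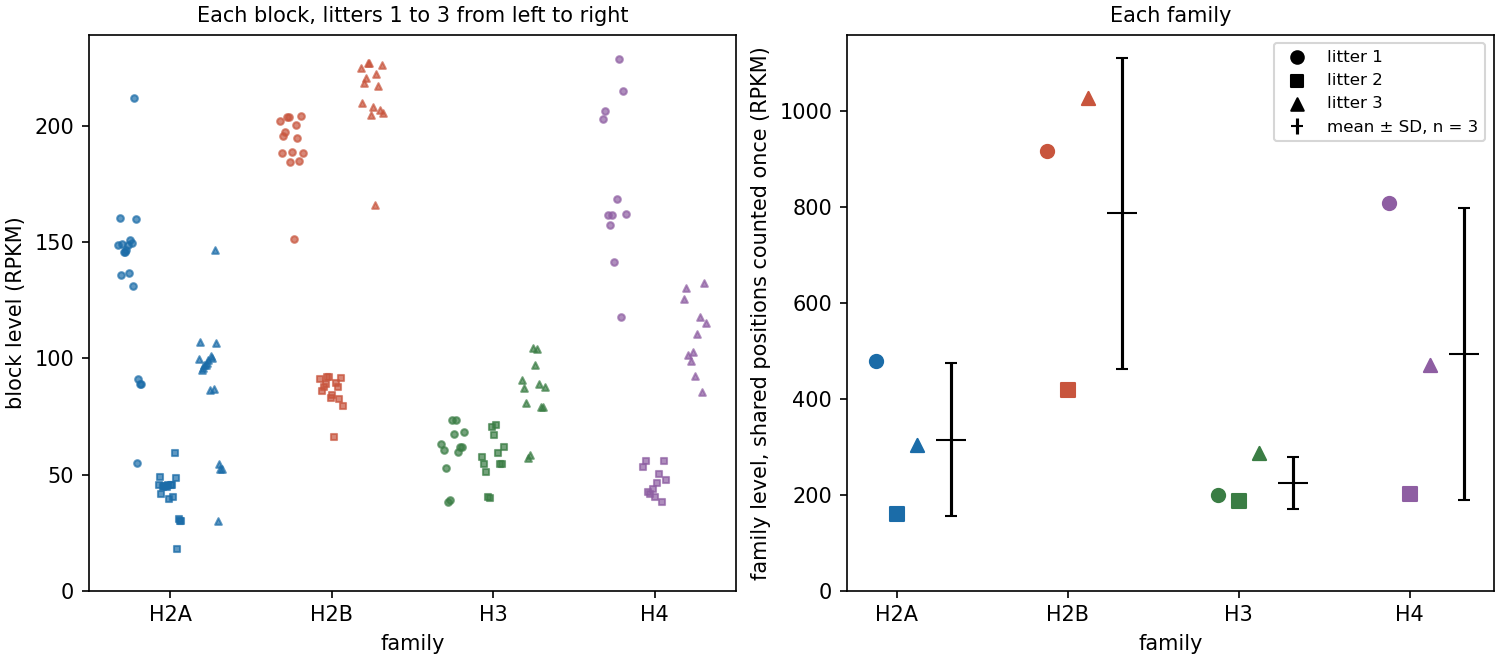
Left, level of each family block (RPKM) in litters 1, 2 and 3, from left to right within a family. Right, level of each family with shared positions counted once (RPKM), a symbol for each litter and the mean ± SD (n = 3) in black. On the right H2B is highest in each litter, and litter 2 is the lowest in all 4 families.

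Ratios between families were compared within litters, 6 in all. H2B over H3 was 4.59, 2.22 and 3.58 in litters 1 to 3, H2B over H2A was 1.91, 2.60 and 3.37, and H2B over H4 was 1.13, 2.08 and 2.18. H4 over H3 was 4.05, 1.07 and 1.64, and H2A over H4 was 0.592, 0.799 and 0.648. These 5 ratios lay on the same side of 1 in all 3 litters, with p = 0.25 (adjusted 0.3) by the exact two-sided sign-flip permutation test, the smallest p that 3 litters allow. By the median level of blocks, H4 lay below H3 in litter 2, at 46.4 against 56.0 RPKM, and the mean log2 ratio of H4 over H3 was 0.48 (p = 0.5, the same exact permutation test) in place of 0.94. On those medians H2B over H3 was 1.20 in place of 1.73, and H2B over H2A was 0.85 in place of 1.36. H2B over H4 was 0.72 in place of 0.79, and H2A over H4 was -0.13 in place of -0.57. The share of a block's alignments in recognised runs had a median of 98.5% in H2A, 94.7% in H3, 89.7% in H4 and 83.6% in H2B. Its part in the ratios was not tested. H2A over H3 was 2.40, 0.854 and 1.06 (p = 0.75, exact sign-flip permutation test, adjusted 0.75), so the order of H2A and H3 was not the same across litters, and without litter 1 the mean log2 ratio was -0.070 in place of 0.37.

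Litter 2 stood below the other litters by different amounts in the 4 families. Its level was 0.410 times the mean of litters 1 and 3 for H2A, 0.430 times for H2B and 0.314 times for H4, but 0.773 times for H3. Litter 1 over litter 3 was 1.57 for H2A and 1.72 for H4, but 0.893 for H2B and 0.697 for H3. The coefficient of variation over litters was 50.6%, 41.2%, 24.0% and 61.8% for the H2A, H2B, H3 and H4 families. Each litter is 1 library, so no litter difference was tested.

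Over the 66 covered blocks the median coefficient of variation was 52.5%, beside 53.0% over all 42887 covered nuclear blocks. By level, the median was 54.6% in the 18893 nuclear blocks between 10 and 50 RPKM, 33.9% in the 3169 between 50 and 100 RPKM and 26.4% in the 1493 between 100 and 200 RPKM. H2A, H2B and H4 blocks ranged from 41.1 to 68.2% and H3 blocks from 18.5 to 27.0%. All 18 H2A, 14 H2B and 11 H4 blocks lay above the nuclear median of their range of levels, and all 12 H3 blocks below it. Blocks of a family share counts, so these values are not independent. Without litter 2 the median over covered blocks was 28.0%. Library composition moved with litter 2: distinct start positions made 9460348, 11366964 and 10508870 of the nuclear alignments in litters 1 to 3. Repeat alignments, those beyond the first at a start, made 86.3%, 70.7% and 86.6% of the alignments in family blocks, and 72.2%, 65.0% and 74.0% of all nuclear alignments. Litter 2 thus had the fewest repeats and the lowest histone levels, and the part of repeats in the difference between litters was not tested. With each start position counted a single time the median coefficient of variation was 18.4%, but that count cannot exceed 1 per position and 63.2%, 54.0% and 65.9% of block positions were already in use, so it narrows any spread. Across the 66 blocks the log2 levels of litters 1 and 2 had a Pearson correlation of 0.773 and a Spearman correlation of 0.682, those of litters 1 and 3 of 0.895 and 0.914, and those of litters 2 and 3 of 0.902 and 0.856. These describe blocks that share counts and carry no test.

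**Figure D5:**
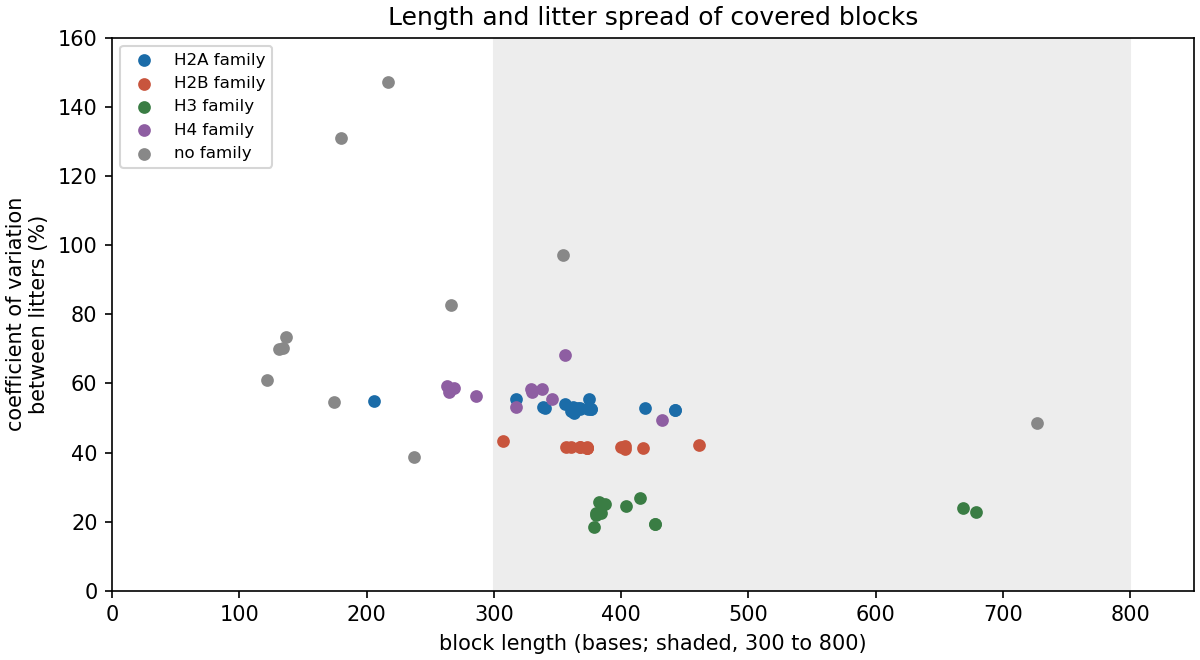
Coefficient of variation between the 3 litters (%) against length (bases) of the 66 covered blocks, coloured by family, with the range of 300 to 800 bases shaded. H3 blocks lie lowest, between 18.5 and 27.0%, H2B blocks next, and 9 of the 11 blocks without a family are shorter than 300 bases.

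The other 11 covered blocks belonged to no family, with 6, 2 and 3 in the intervals and means of 2.88 to 90.9 RPKM. The highest, chr13:23855484-23856210, was 727 bases long, the longest covered block, and stood at 142, 62.0 and 69.1 RPKM (90.9 ± 44.002, SD, n = 3). It shared no run of equal counts with any covered block. Block chr3:96066977-96067110, of 134 bases, followed with 113, 23.2 and 57.3 RPKM (64.5 ± 45.3). In both, litter 1 was the highest and litter 2 the lowest.

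Some blocks without a family were high in 1 litter. Block chr13:22011081-22011297 had 1.08, 22.0 and 1.37 RPKM, high in litter 2 only, with the largest coefficient of variation, 147%. Blocks chr3:96059142-96059321 with 37.1, 3.77 and 3.43 RPKM (131%) and chr3:96073629-96073982 with 26.1, 8.19 and 3.07 RPKM (97.1%) were high in litter 1. Of the 11 blocks, 7 averaged below 10 RPKM, whereas the lowest mean of a family block was 34.3 RPKM. All 55 family blocks ranked between the 81.1 and 97.8 percentile of covered nuclear blocks by level. Counts shared between blocks enter these family levels at every block.

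Silent and weak places made up the rest. The 24 blocks that were not covered had means of 1.22 to 8.05 RPKM with a median of 3.32. At the threshold, chr13:22011081-22011297 and chr13:22028779-22029044 (5.64, 1.62 and 1.39 RPKM) lay just inside. Just outside lay chr3:96074750-96074873 and chr3:96076239-96076362, both with 2.37, 8.70 and 0.996 RPKM. With every alignment counted at each place, no family block was near the threshold. The lowest value of any family block in any litter was then 17.8 RPKM. With each shared position divided over its blocks, H2A blocks of chromosome 13 went down to 3.79 RPKM in litter 2. Family blocks carry counts of their partners, so their distance from the threshold does not show that each copy was active. Copies without signal were not counted gene by gene, since that needs an annotation of mm9. The families held 18 H2A, 14 H2B, 12 H3 and 11 H4 blocks. The annotation has 19, 17, 12 and 12 genes of these classes in Hist1 and Hist2. Some of these genes may lie outside the intervals or be covered without a shared run.

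Runs of equal counts were also found outside the intervals at 5 places. H2A blocks shared runs with chr11:58768503-58768586, chr13:51298177-51298248 and chr9:44143046-44143125, over 20, 16 and 47 start positions. H2B blocks shared runs with chr13:24025733-24025816, over 73 positions, and with chr4:119193628-119193702, over 14. Coverage does not show whether these are the same reads counted again, and the part of these places in the H2A and H2B signal was not tested.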

How the data were processed

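The authors amplified RNA of pooled 2-cell embryos with SPIA (Nugen Ovation kit), sheared the cDNA with a Covaris instrument and made Illumina libraries, per the labels' protocols. The submitters' processing notes name Bowtie and the mm9 build. Settings for multiple matches and strand: not given in the sources used here. Per the file headers, each deposited file is a bedGraph track of signal, the unscaled coverage per base.

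Starts of 72-base alignments were recovered exactly from coverage, with 0 negative starts, after a test on simulated data. An alignment was assigned to a window or block by its middle base. Totals with mitochondrial sequence were 48850490, 45409695 and 54920693 in litters 1 to 3. RPKM is scaled by nuclear alignments, with no pseudocount. Blocks, families, the level with shared positions counted once and class matching are as defined in the results. Blocks named are the 5 highest in each chromosome 13 interval, the 3 highest on chromosome 3, the 3 with the largest and smallest coefficient of variation and the 2 on each side of 1 RPKM. Blocks named for family extremes, unshared alignments or absence from a family were chosen after their values were seen.

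The intervals and lists were chosen with earlier results of these data known. Families, class matching, close pairs, outside copies and the comparison of chromosomes were chosen after seeing the data. Within-litter log2 ratios were tested two-sided by an exact permutation of their signs. Per the labels the litters were collected separately, and whether other steps were shared is not stated. Alternatives were leaving out each litter, distinct starts, other scalings, coverage, gap, level and length limits, flank width and run length. GENCODE M21 (GRCm38) gave names, sequences and class counts only, and coding sequence was the longest open reading frame of a transcript. Tools were networkx 3.6.1, matplotlib 3.10.9, scipy 1.17.1, pandas 2.3.3 and numpy 2.4.6 under Python 3.11.15.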

Additional observations from a re-analysis of the deposited data

How the results depend on the processing

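Of the alternatives named at the outset, 62 left a result in its direction or within its range, and 4 moved it. With each start position counted a single time per litter, the density of the first chromosome 13 interval was 1.54 RPKM in place of 2.81 and that of the second 2.24 RPKM in place of 3.78, which put both below the chromosome 3 interval at 2.47 RPKM in place of 2.39. The median coefficient of variation of covered blocks was then 18.4% in place of 52.5%, on a count limited to 1 per position. Leaving out each litter in turn gave a median coefficient of variation of 28.0 to 71.0%. Of those added after seeing the data, 56 kept the direction or range and 2 reversed a direction. The log2 ratio of H2A over H3 was 0.37, and ranged from -0.070 (without replicate 1) to 0.67 (without replicate 2) when each litter was left out. The log2 ratio of H2A on chromosome 3 over chromosome 13 was 0.91 with each shared position divided over its blocks, in place of -0.75. H4 over H3 kept its direction but was 0.48 (p = 0.5, exact permutation) by the median level of blocks, with litter 2 on the other side of 0. The families held the same 55 blocks without each litter and with runs of at least 20 positions, and 51 with at least 30. The recurrence of single start counts gave no value, because 0 start positions of the blocks reached 20 alignments in every litter. At 10 alignments, 99.4% of 530 positions recurred, beside 83.7% of 214200 elsewhere. The share elsewhere fell to 63.7% at 20 alignments and 38.8% at 50, where the blocks had 0 positions. The 2 shares are therefore not matched in level, and their difference does not show sharing between copies. No paired analysis was possible because there was 1 group only. Depth limits a count of 0 in a window to the RPKM given with the levels, and counts shared between copies limit the value of single copies.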
